A study of Mus musculus with 30 samples.

Results

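The ADAMTS, MMP and TIMP genes of the mouse code for 2 families of secreted or membrane-bound metalloproteinases and for their tissue inhibitors. They were taken by symbol (Adamts, Mmp or Timp followed by a number, with a or b allowed after an Mmp number), which gave 46 symbols in the SVZ table and the same number in the striatum table. A gene was kept in a tissue when it exceeded 1 CPM (counts per 1000000 counts in genes) in at least 3 libraries of that tissue. In the SVZ 25 of the 46 genes were kept, among 16375 of 53278 genes, and in the striatum 25 of 46, among 15419 of 50508 genes. The sets shared 23 genes, so 27 genes were kept in either tissue, with Adamts9 and Mmp19 kept in the SVZ alone and Adamts8 and Mmp9 in the striatum alone.

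RNA was sequenced from the subventricular zone (SVZ), a neurogenic niche along the lateral ventricle, and from the adjacent striatum of the same 15 adult mice, 1 library per mouse and tissue. The study's methods name C57Bl/6 and transgenic mice and RNA from both sexes. They give no strain for the NestinTK line and no sex for each mouse. NestinTK+ mice carry thymidine kinase under the second intron of the rat Nestin promoter, so that ganciclovir (GCV) kills dividing Nestin-expressing precursors. Ablated mice were NestinTK+GCV+ (n = 5), and the 10 controls were wild-type littermates with GCV (NestinTK-GCV+, n = 3), wild-type littermates with PBS (NestinTK-PBS+, n = 3) and transgenic mice with PBS (NestinTK+PBS+, n = 4). GCV or PBS came from a subcutaneous minipump for 4 weeks, and mice are numbered here within each group, with the same number in both tissues.

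Metalloproteinases of these families cut proteins of the extracellular matrix. The aggrecanase-type ADAMTS enzymes cut the lecticans (aggrecan, brevican, neurocan and versican) that form much of the brain matrix, including the nets around neurons, whereas MMPs cut collagens, gelatin and many cell surface proteins. TIMPs bind the active site of MMPs and, for TIMP3, of several ADAMTS enzymes as well. In the brain these genes are used by neurons, glia, vessels and meninges alike, so tissue RNA sums over all of them, and fewer cells of a type and less RNA per cell cannot be told apart.

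SVZ libraries were whole-transcript, low-input libraries with 8360810 to 9595103 counts in ablated and 8947137 to 21056005 in control mice. Mitochondrial genes took 13.1 to 17.0% of SVZ counts in ablated and 6.69 to 15.2% in control mice. The part of depth and mitochondrial share in member values was not tested. Striatum libraries were 3′-end libraries with 2626962 to 3371033 and 2780471 to 4693441 counts. The labels call the SVZ samples neural precursor cells, but the protocol describes dissected tissue, and oligodendrocyte and choroid plexus genes were present in them. In the SVZ, 10 of 10 genes of a dividing-cell list had a lower fitted level in ablated mice, with 2 called, and their summed level was 11.7 to 40.6 CPM against 24.9 to 183.7 CPM in controls. Of all SVZ genes tested, 51.9% had a lower fitted level and 1.22% were called lower. In 3 SVZ control libraries (NestinTK-PBS+ mice 1 and 2 and NestinTK+PBS+ mouse 1) more than 1% of counts fell on Ttr, a choroid plexus gene, and these libraries stood apart. Their choroid plexus list summed to 46942, 103259 and 103785 CPM, against 15.8 to 795.7 CPM in the other 12 SVZ libraries. In the striatum the library of NestinTK+PBS+ mouse 4 stood apart, with 1466 CPM for that list against at most 56.5 CPM elsewhere and with the highest oligodendrocyte list level, 6002 CPM. Its medium spiny neuron list was the lowest, 4641 CPM against 8980 to 12160 CPM in the other 14 striatum libraries. A cortical excitatory neuron list was high in the SVZ of ablated mouse 2 (794.4 CPM) and NestinTK-GCV+ mouse 3 (802.5 CPM). The other SVZ libraries had 40.6 to 188.0 CPM. These mice also had the lowest SVZ medium spiny neuron list, 4412 and 5269 CPM. In the striatum the cortical list reached 724.9 CPM in NestinTK-GCV+ and 423.0 CPM in NestinTK+PBS+ mice, against at most 189.4 CPM in ablated mice. Its part in member values was not tested.

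Throughout, a gene is called when its unadjusted p is at most 0.01 and its change is at least 2-fold in edgeR's quasi-likelihood test, fitted on all kept genes of the tissue. Adjusted p-values are Benjamini-Hochberg values over all those genes, and log2 fold changes are given as ablated minus control. Levels are CPM scaled by the trimmed mean of M-values (TMM).

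Family members differed widely in level, and the inhibitors Timp2 and Timp3 were at the top in both tissues. Per kilobase (kb) of exon, the 5 highest medians over SVZ controls were those of Timp2 (78.8 CPM per kb), Timp3 (15.1), Mmp17 (12.7), Timp4 (5.81) and Mmp14 (3.61). In the striatum, where 3′-end counts need no length correction, the 5 highest were Timp2 (867.6 CPM), Timp3 (122.3), Mmp17 (64.1), Mmp16 (37.9) and Timp4 (30.6). Timp2 alone took 31.7 to 47.3% of the summed family level in SVZ controls and 60.7 to 77.8% in striatum controls, and in ablated mice 41.3 to 45.9% and 65.9 to 71.1%. The control ranges of Timp2 and Timp3 did not overlap in the striatum, whereas those of Mmp17, Mmp16 and Timp4 overlapped, so the order among these 3 was not fixed by their spread. Timp1, the fourth inhibitor, was not kept in either tissue. It had 28, 4 and 80 counts in 3 SVZ libraries and 0 in the other 12, and at most 3 counts in any striatum library.

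**Figure D1:**
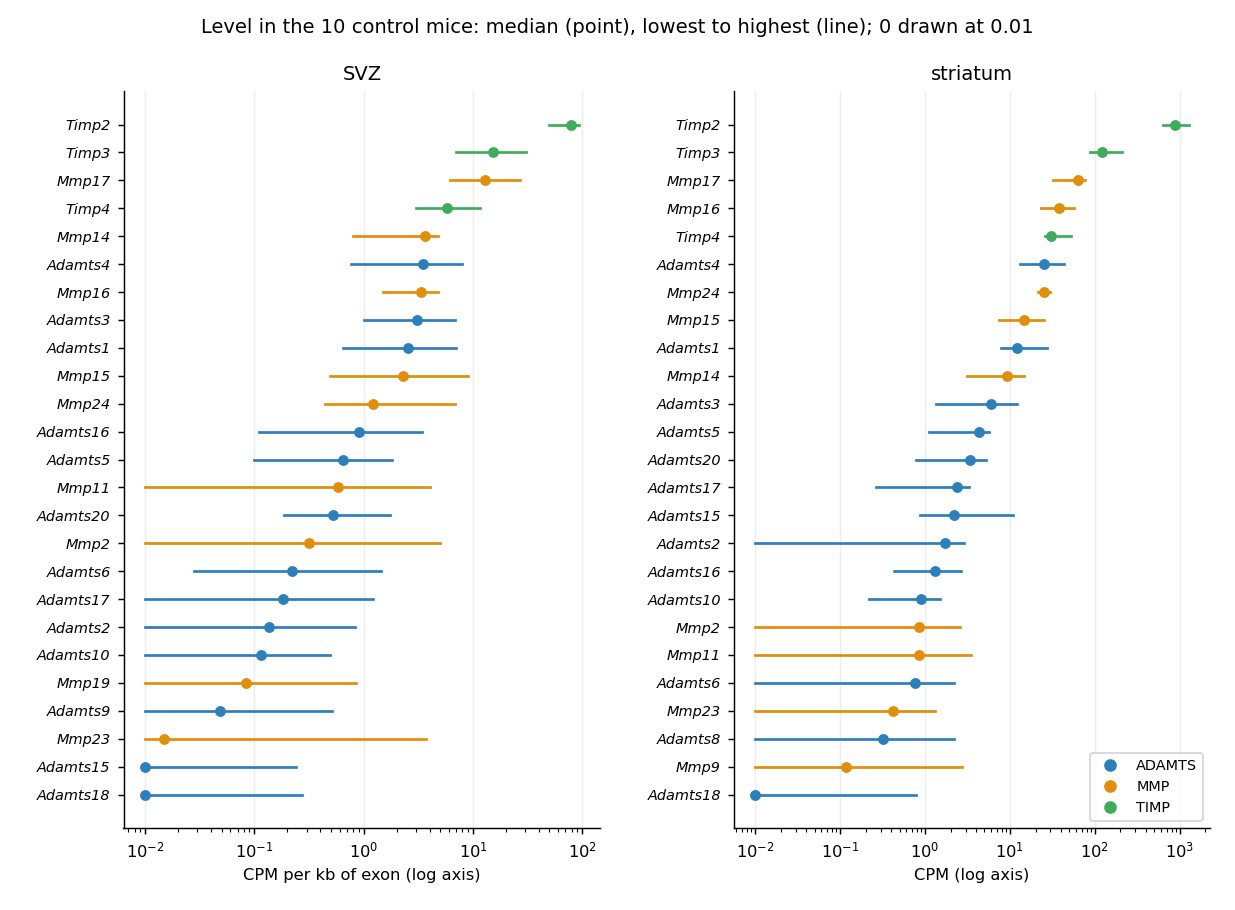
Levels of the kept genes in the 10 control mice of each tissue, on a log axis, as CPM per kb of exon in the SVZ and as CPM in the striatum. Points are medians and lines run from the lowest to the highest mouse. Timp2 and Timp3 lead in both tissues, at 78.8 and 15.1 CPM per kb and at 867.6 and 122.3 CPM, and Adamts18 has a median of 0 in both.

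Genes that were not kept included a whole gene cluster. All 10 Mmp genes of a cluster on chromosome 9 (GRCm38, chr9:7272514-7699585, which holds the collagenases Mmp1a, Mmp1b, Mmp8 and Mmp13, the stromelysins Mmp3 and Mmp10, and Mmp7, Mmp12, Mmp20 and Mmp27) stayed below the limit in both tissues. The highest count of any of them was 4 in the SVZ and 5 in the striatum. Adamts13, which cuts von Willebrand factor, and the cartilage-protein-cutting Adamts7 and Adamts12 were also below it in both tissues. Adamts7 was an extreme case in the SVZ, with 149 counts in ablated mouse 1, 17 in NestinTK+PBS+ mouse 4, 1 each in NestinTK-PBS+ mouse 2 and NestinTK+PBS+ mouse 2, and 0 in the other 11 libraries. Mmp9, a gelatinase gene kept in the striatum alone, had 0, 0, 4, 37 and 17 counts in the SVZ of ablated mice 1 to 5 and 0 to 2 counts in controls. Such all-or-none values were common in the SVZ. Of 23 kept members that reached 5 CPM in some SVZ library, 12 (52.2%) had 0 counts in another, against 27.8% of all genes tested, whereas in the striatum this held for 1 of 15 members (6.67%) and 3.08% of all genes. The coefficient of variation over the 10 controls had a median of 0.981 over SVZ members (all genes tested, 0.543) and of 0.47 over striatum members (all genes tested, 0.291).

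The striatum was compared first for its steadier values. Between ablated and control mice Adamts10 was higher and Adamts1 lower, and both were called. Adamts4 was lower and Adamts17 and Adamts18 higher at an unadjusted p under 0.05 without being called, and the remaining 20 of 25 members had larger p-values. Called lower was 1 of 25 members, beside 0.24% of all genes, and called higher was 1 of 25, beside 0.454%. An unadjusted p under 0.05 was found for 5 of 25 members, beside 10.5% of all genes, or for 4 of 24 without Adamts18, which was kept only through ablated libraries and so had to differ. In edgeR no member had an adjusted p under 0.05, which 0.182% of all genes had. With DESeq2 the adjusted p was 0.0341 for Adamts1 and 0.0206 for Adamts10. Against NestinTK-GCV+ controls alone the edgeR adjusted p was 0.0144 for Timp2 (-0.53) and 0.0427 for Mmp16 (-0.59), both under 2-fold. Shares of all genes with an adjusted p under 0.05 were not counted for these or the other alternative fits. The median log2 fold change of the 25 members was 0.01, with 12 lower and 13 higher, and the median over all genes was 0.00.

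Adamts10, on chromosome 17 (chr17:33524204-33553782, plus strand), codes for a fibrillin-binding ADAMTS of the microfibril matrix. In the striatum it stood at 2.11, 2.54, 3.33, 3.40 and 4.65 CPM in ablated mice 1 to 5. Controls had a lowest value of 0.218, a median of 0.892 and a highest of 1.5 CPM. The lowest ablated mouse was above the highest control, the only one of the 25 members with groups apart. Groups apart with ablated higher were found for 0.279% of all genes, and with ablated lower for 0.253%, which included no member. The group means were 3.21 ± 0.973 CPM (SD, n = 5) and 0.888 ± 0.422 CPM (SD, n = 10), and the log2 fold change was 1.82 (SE 0.46), with an edgeR adjusted p of 0.106. These levels rested on 6 to 14 reads per ablated and 1 to 6 reads per control library. By control group, means were 1.24 ± 0.374 CPM in NestinTK-GCV+, 0.865 ± 0.388 in NestinTK-PBS+ and 0.637 ± 0.358 in NestinTK+PBS+ mice (SD, n = 3, 3 and 4). Against NestinTK-GCV+ controls alone the change was 1.31 (edgeR adjusted p = 0.183) and was no longer called.

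Adamts1, which codes for an aggrecanase-type enzyme that cuts versican, lies on chromosome 16 (chr16:85793827-85803113, minus strand). Its level in the striatum was 8.46, 7.98, 4.44, 4.54 and 6.65 CPM in ablated mice 1 to 5, and 7.76 to 27.6 CPM in controls, with a median of 12.1. Only the lowest control, NestinTK-GCV+ mouse 2, lay within the ablated range, and NestinTK-PBS+ mouse 1 was the highest. Means were 6.41 ± 1.88 CPM (SD, n = 5) and 13.8 ± 5.97 CPM (SD, n = 10), and expression fell by 1.11 on the log2 scale (SE 0.29, edgeR adjusted p = 0.114). The call was lost without NestinTK-PBS+ mouse 1, at a log2 fold change of -0.94 (edgeR adjusted p = 0.126), and against NestinTK-GCV+ controls alone, at -0.84 (edgeR adjusted p = 0.109). Because Adamts1 was the member called lower, the 250 bases before its annotated start are shown (RefSeq, GRCm38.p6, chr16:85803114-85803363, minus strand, written 5′ to 3′). Capitals mark a TATAAA motif, whose first base is 32 bases before the start, and a TGACG, part of the cyclic AMP response element.
Adamts1: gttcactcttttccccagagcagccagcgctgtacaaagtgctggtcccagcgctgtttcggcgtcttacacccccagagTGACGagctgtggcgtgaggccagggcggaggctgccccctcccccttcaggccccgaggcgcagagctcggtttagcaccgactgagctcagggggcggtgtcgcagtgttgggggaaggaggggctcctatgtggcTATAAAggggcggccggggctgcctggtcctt
Of the 27 members, 15 had an entry among these promoter sequences. TATAAA on the gene's strand was present for 1 of the 15, Adamts1, and in 7.59% of all 32851 promoters, and TGACG on either strand for 3 (Adamts1, Adamts3 and Adamts9) and in 17.8%. TGANTCA, the AP-1 site, was in none of the 15 and in 6.75% of all. Members were counted by gene, through any of a gene's entries, and the percentages by promoter entry, so the units differ.

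Adamts5, also on chromosome 16 and 53.1 kb from Adamts1, codes for another strong aggrecanase. In the striatum its level was 5.64, 6.17, 4.07, 5.39 and 6.32 CPM in ablated mice 1 to 5 and 1.11 to 5.67 CPM in controls, with a median of 4.32. Ablated mice 2 and 5 were above every control, ablated mice 1 and 4 between the control median and the highest control, and ablated mouse 3 below that median. The log2 fold change was 0.46 (SE 0.31, edgeR adjusted p = 0.638).

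Adamts4, an aggrecanase gene that in the adult brain is known mainly from oligodendrocytes, was at 18.7, 22.5, 15.2, 14.5 and 15.3 CPM in the striatum of ablated mice 1 to 5. Controls ran from 13.2 to 43.0 CPM with a median of 25.2, and the ranges overlapped. It was lower by a log2 fold change of -0.61 (SE 0.23, edgeR adjusted p = 0.339), and against NestinTK-GCV+ controls alone by -0.12 (edgeR adjusted p = 0.819). Control groups were apart as well. The NestinTK-GCV+ mean was 18.4 ± 4.58 CPM and the NestinTK-PBS+ mean 32.3 ± 2.48 CPM (SD, n = 3 each), a log2 difference of -0.82 (SE 0.28, edgeR adjusted p = 0.128), with no overlap between these 6 mice. How many of all genes separate these 6 mice was not counted. Oligodendrocyte marker genes followed the same order of groups. All 10 of that list had a lower fitted level in the ablated striatum, 7 with an unadjusted p under 0.05 and none called, with a median log2 fold change of -0.61. Of all striatum genes tested, 49.5% had a lower fitted level and 10.5% had such a p. Their summed level was 2130 to 2793 CPM in ablated, 2325 to 3090 in NestinTK-GCV+, 3278 to 4857 in NestinTK-PBS+ and 2823 to 6002 CPM in NestinTK+PBS+ mice. NestinTK+PBS+ mouse 4 was highest both for Adamts4 and for the list. Among ablated mice, mouse 2 was highest for both (22.5 and 2793 CPM). By contrast, ablated mouse 4 was lowest for Adamts4 (14.5 CPM) with a list level of 2613 CPM, and ablated mouse 1 was lowest for the list (2130 CPM) with Adamts4 at 18.7 CPM. The part of these markers in the Adamts4 values was not tested.

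Adamts17, linked like Adamts10 to inherited short stature syndromes in people, was at 4.58, 3.99, 5.55, 2.27 and 3.66 CPM in the striatum of ablated mice 1 to 5, against 0.262 to 3.32 CPM in controls (median 2.39). All but ablated mouse 4 were above every control, and the log2 fold change was 0.92 (SE 0.42, edgeR adjusted p = 0.44). Adamts18, whose protein is known from eye and vessel development, had 3, 3, 4, 3 and 0 reads in these 5 ablated libraries and 2 in NestinTK-GCV+ mouse 2, 3 in NestinTK+PBS+ mouse 1 and 0 in the other 8 control libraries. It exceeded 1 CPM in ablated libraries alone, so it could be kept only by being higher there and its difference is no independent result. The pooled rate was 7.21 times that of controls (13 against 5 reads, exact 95% interval 2.41 to 25.8 for counting error only), and the fit gave 2.51 (SE 0.95, edgeR adjusted p = 0.338). Without ablated mouse 5, NestinTK-GCV+ mouse 2 or NestinTK+PBS+ mouse 1, 1 at a time, Adamts18 was called, at 2.83, 2.95 and 3.35, and without ablated mouse 1, 2 or 3 it was no longer kept.

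**Figure D2:**
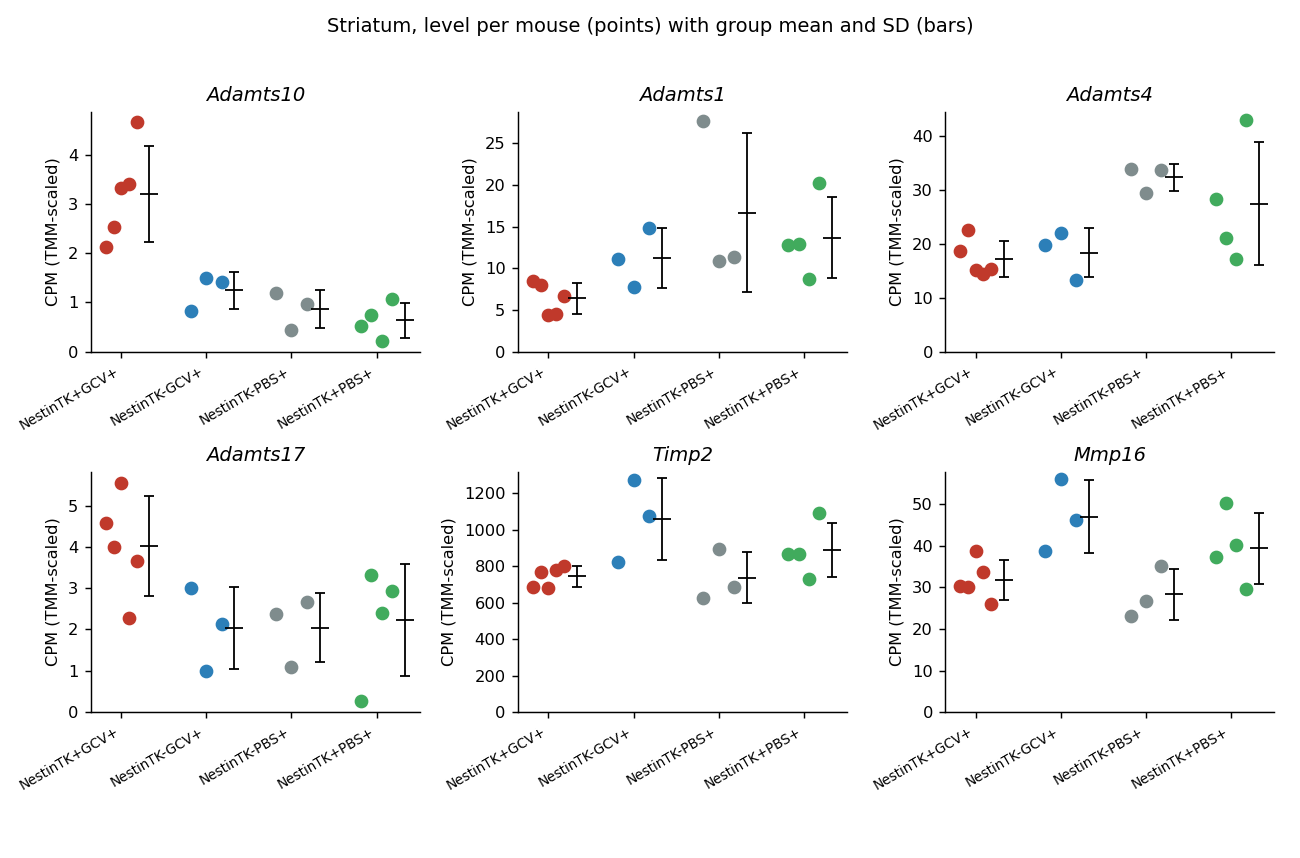
Striatum levels in CPM for each mouse of the 4 groups, with the group mean and SD beside the points. Every ablated mouse is above every control for Adamts10, 3 of 5 are below every control for Adamts1, and Timp2 and Mmp16 are highest in NestinTK-GCV+ mice.

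Among MMPs the striatum held no called member between ablated and control mice. Mmp17, a membrane-anchored enzyme, was at 54.6 to 68.2 CPM in ablated and 32.6 to 77.5 CPM in control mice, and the log2 fold change was 0.01 (SE 0.14, 95% interval -0.27 to 0.29). The medians over the 5 ablated and 10 control mice were 65.5 and 64.1 CPM. The 5 kept membrane-type MMPs had a median log2 fold change of -0.02. The gelatinases Mmp2 and Mmp9 had control medians of 0.852 and 0.118 CPM, and Mmp2 gave -1.10 (SE 0.90, edgeR adjusted p = 0.714). The 3 kept TIMPs were all lower by fitted values in ablated striatum, none of them called. Timp2 was at 685.4, 771.0, 683.3, 777.9 and 802.7 CPM in ablated mice 1 to 5 and at 627.4 to 1273 CPM in controls (median 867.6), a log2 fold change of -0.26 (SE 0.14, edgeR adjusted p = 0.518). Timp3 gave -0.12 (SE 0.16), with 97.1 to 145.1 against 88.1 to 210.6 CPM, and Timp4 gave -0.08 (SE 0.15), with 24.7 to 37.2 against 26.1 to 51.8 CPM. Timp3 turned to 0.23 against NestinTK-GCV+ controls alone and Timp4 to 0.014 without NestinTK+PBS+ mouse 4. For all 3 inhibitors the ablated values lay inside or nearly inside the control range. Exons of Timp3 overlap those of Syn3 on the other strand over 1733 bases and exons of Timp4 those of Syn2 over 90 bases, and since nothing read here tells whether counting used strand, reads from these stretches cannot be assigned with certainty.

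The 4 groups were then compared within the striatum. These contrasts share groups, so their values are given side by side and are not independent. NestinTK+GCV+ against NestinTK+PBS+ mice set GCV against PBS, and with it low against high library numbers, in transgenic mice. Of 25 members 2 were called, beside 1.35% of all genes, and 3 had an unadjusted p under 0.05, beside 10.1%. Adamts10 was higher by 2.31 (SE 0.66, edgeR adjusted p = 0.171) and Adamts1 fell by 1.09 (SE 0.33, edgeR adjusted p = 0.192, or 0.0251 with no filter on low counts). Without NestinTK+PBS+ mouse 4, the highest of its group for this gene, Adamts1 was at -0.83 (edgeR adjusted p = 0.53) and was not called, and without ablated mouse 3 or 4 it was at -0.99 and -0.98, just under 2-fold. The Adamts4 value was -0.67 (SE 0.24, edgeR adjusted p = 0.283), under 2-fold.

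NestinTK+GCV+ against NestinTK-GCV+ mice, the contrast of genotype under GCV, had 0 of 25 members called by edgeR, beside 2.1% of all genes, and 0 by DESeq2. An unadjusted p under 0.05 was found for 3 of 25, beside 17.7% of all genes. Timp2 was lower by a log2 difference of -0.51 (SE 0.15, edgeR adjusted p = 0.0651), Mmp16 by -0.56 (SE 0.19, edgeR adjusted p = 0.108) and Adamts1 by -0.82 (SE 0.36, edgeR adjusted p = 0.224). For Timp2 the NestinTK-GCV+ mice 1 to 3 stood at 825.2, 1273 and 1078 CPM, all above the 5 ablated mice. The share of all genes with such a separation was not counted.

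NestinTK-GCV+ against NestinTK-PBS+ mice likewise set GCV against PBS, and with it low against high library numbers, in wild-type littermates. Of 25 members 1 was called, beside 2.46% of all genes, and 5 had an unadjusted p under 0.05, beside 16.1%. The called one was Adamts8, an aggrecanase-type gene 20.1 kb from Adamts15 on chromosome 9. It had 8, 6 and 6 reads in NestinTK-GCV+ mice 1 to 3 and 1, 0 and 0 reads in NestinTK-PBS+ mice 1 to 3. The pooled rate was 21.1 times higher (20 against 1 read, exact 95% interval 3.37 to 873 for counting error only), and the fit gave an edgeR adjusted p of 0.142. The call did not hold when 1 of 9 mice was left out (ablated mouse 1 or 3, any NestinTK-GCV+ mouse, NestinTK-PBS+ mouse 2 or 3, or NestinTK+PBS+ mouse 1 or 2), with log2 values of 3.48 to 4.05. Ablated mice had 3, 0, 1, 5 and 0 reads and NestinTK+PBS+ mice 1, 1, 0 and 4, between those groups. Exons of Adamts8 overlap another gene, Gm29724, over 489 bases on the other strand. In the same contrast Mmp16 was higher by 0.73 (SE 0.22, edgeR adjusted p = 0.0761), Timp2 by 0.52 (SE 0.17, edgeR adjusted p = 0.114) and Timp3 lower by -0.44 (SE 0.20, edgeR adjusted p = 0.27), each under 2-fold.

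NestinTK+PBS+ against NestinTK-PBS+ mice compared the genotypes without GCV. Most NestinTK+PBS+ mice but no NestinTK-PBS+ mice had numbers of the 40 series, so transgene and number series were partly mixed. By edgeR 0 of 25 members were called, beside 0.83% of all genes, and DESeq2 called 0. At an unadjusted p under 0.05 were 3 members, beside 6.41% of all genes, namely Mmp15 (0.76, SE 0.27, edgeR adjusted p = 0.738), Mmp16 (0.47, SE 0.21, edgeR adjusted p = 0.759) and Adamts15 (1.58, SE 0.71, edgeR adjusted p = 0.765), and without NestinTK-PBS+ mouse 2 Mmp15 was called. The interaction of genotype and treatment called 1 of 25, beside 3.28% of all genes, and gave 4 an unadjusted p under 0.05, beside 15.1%. The called one was Mmp16, which codes for a membrane-type MMP that activates the gelatinase MMP2, on chromosome 4 (chr4:17852893-18119145, plus strand). Mmp16 was at 30.3, 30.1, 38.8, 33.8 and 25.9 CPM in NestinTK+GCV+ mice, at 38.6, 56.0 and 46.3 in NestinTK-GCV+ mice, at 23.1, 26.8 and 35.1 in NestinTK-PBS+ mice and at 37.3, 50.2, 40.3 and 29.6 in NestinTK+PBS+ mice. GCV mice were the higher ones among wild-type littermates and, by means of 31.8 ± 4.82 (SD, n = 5) against 39.3 ± 8.51 CPM (SD, n = 4), the lower ones among transgenic mice. The interaction was -1.03 on the log2 scale (SE 0.28, edgeR adjusted p = 0.0792), close to the 2-fold limit. The adjusted p was 0.025 with DESeq2, and in edgeR 0.0194 with no filter on low counts and 0.0203 without NestinTK+PBS+ mouse 4. Without ablated mouse 5, NestinTK-GCV+ mouse 2, NestinTK-PBS+ mouse 1 or 2 or NestinTK+PBS+ mouse 2, 1 at a time, it was under 2-fold (-0.99 to -0.89). Timp2 followed at -0.78 (SE 0.22, edgeR adjusted p = 0.0881), under 2-fold.

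In the SVZ the comparison of ablated with control mice called none of the 25 members. None of them had an unadjusted p under 0.05 in edgeR (9.81% of all genes had one), DESeq2 called 0, and limma-voom called 1, Adamts1, at -3.97. Shares of all genes called by DESeq2 and limma-voom were not counted, and those that follow are edgeR's. Of all genes, 1.22% were called lower and 0.373% higher, 0.00611% had an adjusted p under 0.05, and groups apart were found with ablated lower for 0.147% and with ablated higher for 0.11%, no member among them. The members' log2 fold changes ran from -2.27 to 1.38, 10 lower and 15 higher, with a median of 0.15 beside -0.03 over all genes. Their standard errors had a median of 0.98, against 0.42 over the striatum members, and the between-mouse spread in this tissue was correspondingly wide.

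**Figure D3:**
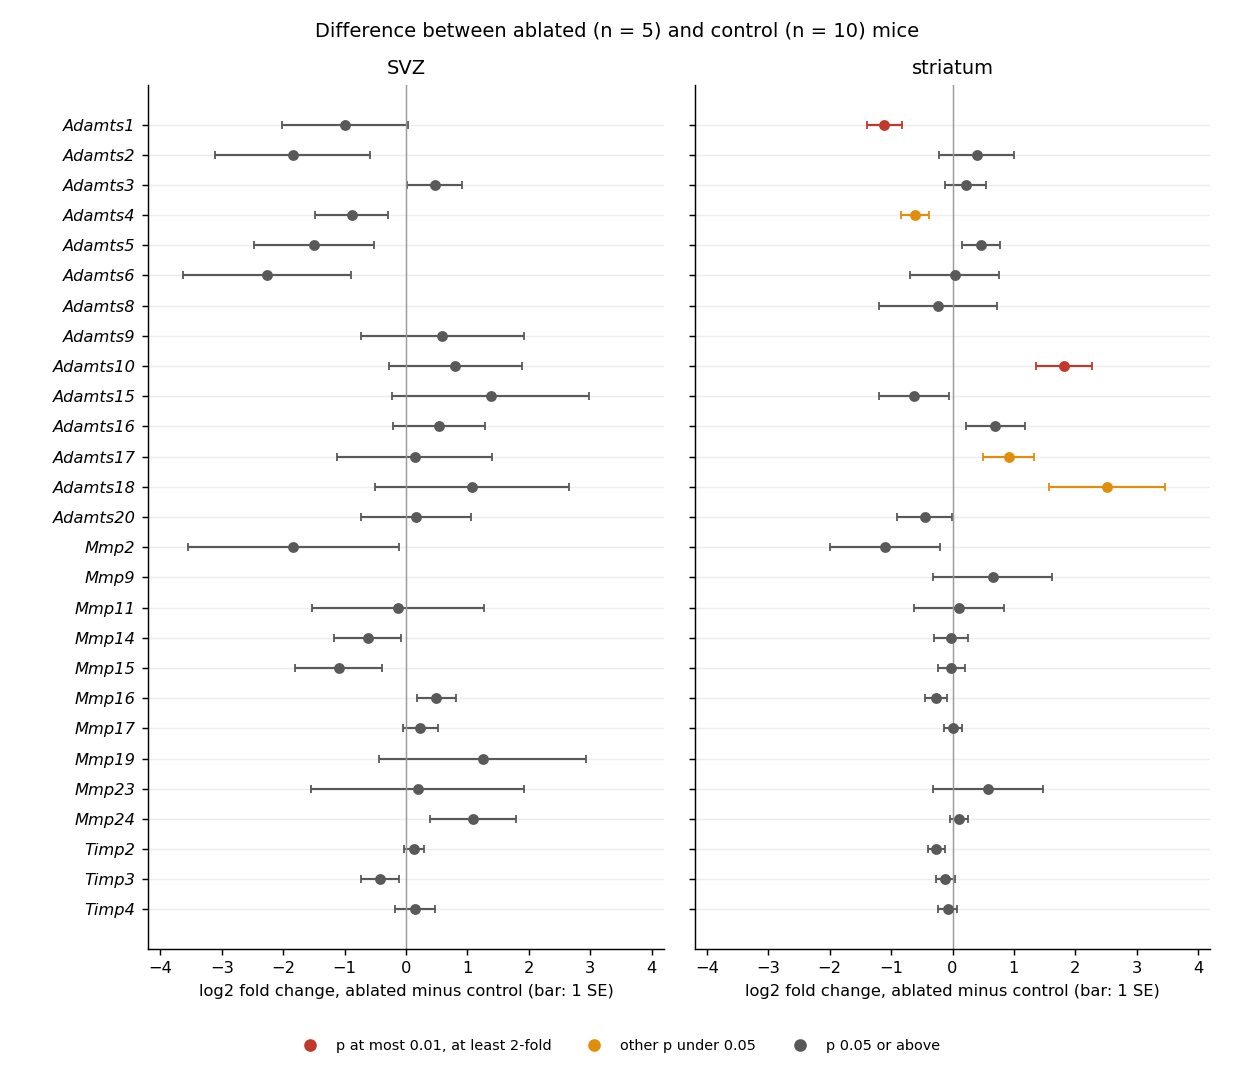
Log2 fold change of ablated (n = 5) minus control (n = 10) mice for each kept member in each tissue, with bars of 1 SE, and colours for calls and for other unadjusted p-values under 0.05. In the SVZ no member stands apart from 0 by this test, with values from -2.27 to 1.38, and in the striatum Adamts10 (1.82) and Adamts1 (-1.11) are called.

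Of the 25 SVZ members Timp2 had the smallest coefficient of variation over controls, 0.178. It was at 373.3, 309.7, 246.9, 265.2 and 408.7 CPM in ablated mice 1 to 5 and at 191.3 to 358.9 CPM in controls (median 306.9), a log2 fold change of 0.13 (SE 0.16, 95% interval -0.18 to 0.45). Timp4 was at 23.2 to 59.4 CPM in ablated and 17.8 to 67.9 CPM in control mice, with a log2 fold change of 0.15 (SE 0.33). Mmp17 was at 53.9 to 179.0 against 40.8 to 178.1 CPM, with 0.23 (SE 0.29). The groups overlapped for each of these.

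Timp3, which codes for an inhibitor that binds to the matrix, was at 85.9, 105.6, 144.0, 117.6 and 87.6 CPM in the SVZ of ablated mice 1 to 5. The high-Ttr controls (NestinTK-PBS+ mice 1 and 2 and NestinTK+PBS+ mouse 1) had 227.7, 249.5 and 240.3 CPM, and the other 7 controls had 57.2 to 156.7 CPM. The 3 high-Ttr libraries were thus the 3 highest of all 15. The log2 fold change was -0.42 (SE 0.31, edgeR adjusted p = 0.715) with them and 0.05 without them. The membrane-type Mmp15 and the gelatinase Mmp2, singled out after their values were seen, shared this order. Mmp15 was at 26.5, 48.0 and 41.5 CPM in the high-Ttr mice, at 2.64 to 21.3 in the other controls and at 2.0 to 17.7 CPM in ablated mice, and its log2 fold change of -1.10 (SE 0.71, edgeR adjusted p = 0.653) became -0.15 without the 3 libraries. Mmp2 was at 16.7, 8.96 and 10.9 CPM in the high-Ttr mice and at 0 to 5.69 CPM in the other 12, and its -1.84 (SE 1.72, edgeR adjusted p = 0.804) became 0.15, and was -3.32 without ablated mouse 3. For all 3 genes the high values thus went with the choroid plexus list, whose part in them was not tested, and for Timp3 and Mmp2 the sign turned without those libraries. A meningeal fibroblast list was also highest in these 3 mice, at 158.4, 204.5 and 172.5 CPM, against 11.5 to 42.1 CPM in the other controls and 14.8 to 35.7 CPM in ablated mice.

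Mmp14, the best known activator of proMMP2, was at 0.96, 10.5, 25.7, 10.0 and 13.1 CPM in the SVZ of ablated mice 1 to 5. It was at 4.74 to 15.5 CPM in NestinTK-GCV+, 11.3 to 28.3 in NestinTK-PBS+ and 21.5 to 26.1 CPM in NestinTK+PBS+ mice, and the log2 fold change was -0.62 (SE 0.55, edgeR adjusted p = 0.785). Ablated and control values overlapped, and against NestinTK-GCV+ controls alone the sign turned, to 0.29. Without ablated mouse 1 the value was -0.31 and without ablated mouse 3 it was -1.10.

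Of the 6 aggrecanase-type members tested in the SVZ, 3 had a lower and 3 a higher fitted level in ablated mice, with a median log2 fold change of -0.36. Adamts1 was at 0.48, 24.3, 0, 0 and 19.0 CPM in ablated mice 1 to 5 and at 3.42 to 37.1 CPM in controls (median 13.5). So 3 ablated mice were below every control and the other 2 were within the control range, and the log2 fold change was -1.0 (SE 1.03, edgeR adjusted p = 0.827). It turned to 0.25 against NestinTK-GCV+ controls alone and was -1.84 without ablated mouse 2. Adamts5 was at 0, 3.07, 1.84, 0.107 and 9.67 CPM against 1.06 to 19.7 CPM (median 6.95), with -1.51 (SE 0.98, edgeR adjusted p = 0.654), or -2.73 without ablated mouse 5. Adamts6, an ADAMTS close to Adamts10 in sequence and linked to fibrillin, was at 0, 0.697, 0, 0 and 2.85 CPM against 0.22 to 11.1 CPM (median 1.72), with -2.27 (SE 1.36, edgeR adjusted p = 0.627) and the smallest p of the 25, and was at -4.26 without ablated mouse 5. Adamts4 was at 26.8, 5.30, 1.47, 3.21 and 14.1 CPM against 3.70 to 38.4 CPM (median 16.8), with -0.89 (SE 0.60, edgeR adjusted p = 0.678), or -1.64 without ablated mouse 1. For each of these 4 genes 2 or 3 ablated mice lay below every control and the others within the control range. The share of all genes with this pattern was not counted. The aggrecanase-type members with a higher fitted level overlapped between groups. Adamts15 gave 1.38 (SE 1.6, edgeR adjusted p = 0.856), with 0 to 4.32 CPM in ablated and 0 to 2.5 in control mice. Adamts9 gave 0.59 (SE 1.33, edgeR adjusted p = 0.943), with 0 to 12.1 against 0 to 7.76 CPM, and Adamts20 gave 0.16 (SE 0.90), with 0 to 20.5 against 1.67 to 15.7 CPM. Adamts20 thus had ablated values both below the lowest and above the highest control, so low ablated values were not limited to genes with a lower fitted level. Adamts10, called in the striatum, was at 3.36, 3.21, 1.47, 2.67 and 1.36 CPM in ablated mice against 0 to 4.02 CPM in controls (median 0.95), with overlap and a log2 fold change of 0.80 (SE 1.09, edgeR adjusted p = 0.889).

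**Figure D4:**
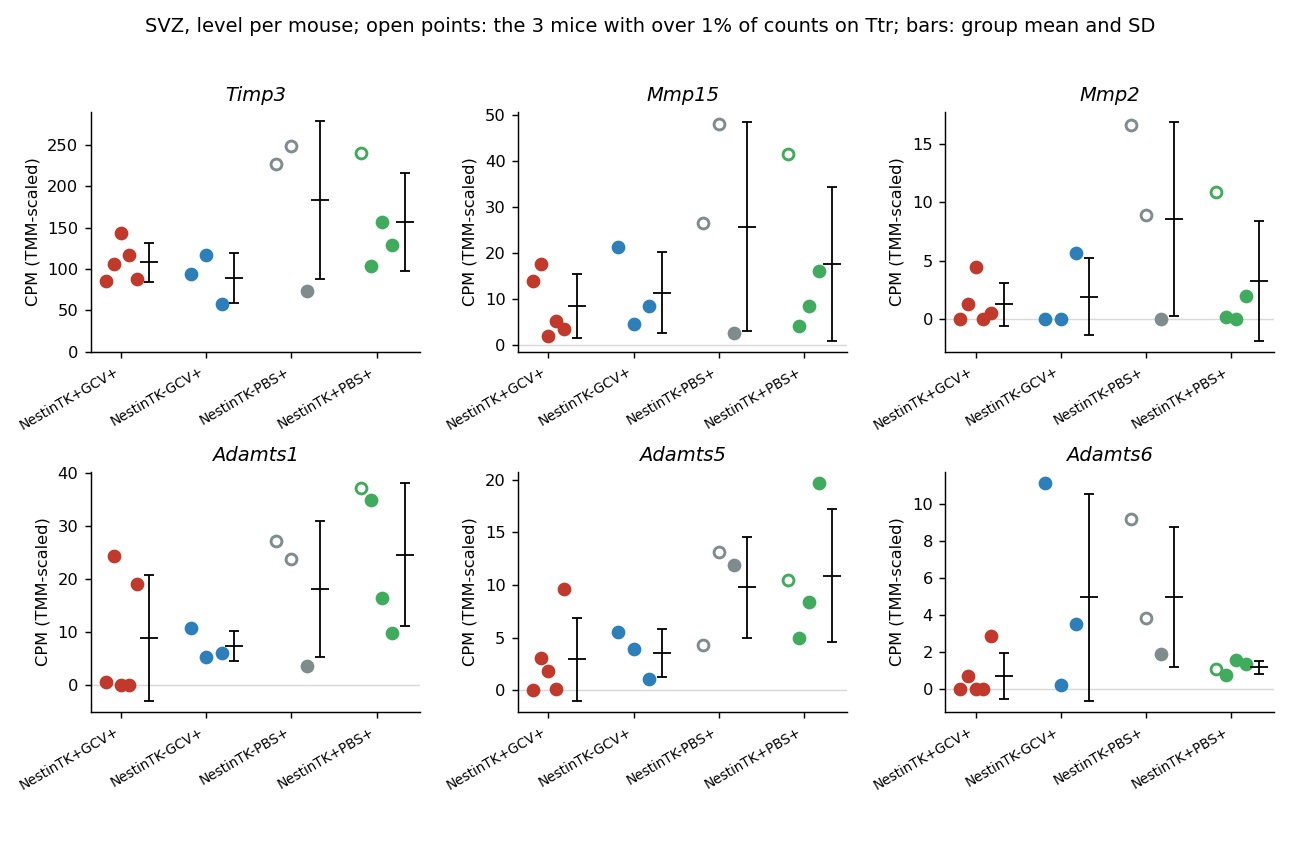
SVZ levels in CPM for each mouse of the 4 groups, with the group mean and SD and with open points for the 3 control mice with over 1% of counts on Ttr. The open points are the highest for Timp3 (227.7 to 249.5 CPM), Mmp15 and Mmp2, and Adamts1, Adamts5 and Adamts6 have ablated mice at or near 0.

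Across the 4 groups of the SVZ no member was called by edgeR. The percentages of all genes below are edgeR's, and shares called by DESeq2 were not counted. As in the striatum, GCV libraries had low and PBS libraries high library numbers. NestinTK+GCV+ against NestinTK+PBS+ mice had 0 of 25 members with an unadjusted p under 0.05 (7.13% of all genes had one, and 1.19% were called), and DESeq2 called 0. Against NestinTK-GCV+ mice 1 of 25 had such a p (7.45% of all genes, 0.94% called), and DESeq2 called 1. NestinTK-GCV+ against NestinTK-PBS+ mice had 2 of 25 (7.65%, 1.06% called), and DESeq2 called 2. NestinTK+PBS+ against NestinTK-PBS+ mice had 0 (2.69%, 0.195% called), and DESeq2 called 0. The interaction had 2 of 25 (5.09%, 0.837% called), and DESeq2 called 1. The members behind these were Mmp23, Timp3 and, for the interaction, Adamts2, which codes for a procollagen N-propeptidase. Mmp23 had 0 counts in all 3 NestinTK-GCV+ libraries, 0, 115 and 79 in NestinTK-PBS+ mice 1 to 3, 25, 3, 0 and 1 in NestinTK+PBS+ mice and 0, 1, 0, 41 and 39 in ablated mice, so that present and absent values occurred within groups as well as between them. Timp3 was lower in NestinTK-GCV+ than in NestinTK-PBS+ mice by -1.04 (SE 0.40, edgeR adjusted p = 0.646), and 2 of the latter 3 mice were high-Ttr ones. Single omissions made a call in 2 of these contrasts. Timp3 was called in that contrast without NestinTK-PBS+ mouse 3, and the interaction was called for Mmp23 without ablated mouse 1 or 3, NestinTK-PBS+ mouse 1 or NestinTK+PBS+ mouse 1, and for Adamts16 without NestinTK-GCV+ mouse 1.

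The ablation effect was also compared between tissues within each mouse, on log2 CPM of the SVZ minus the striatum with limma, for 23 members. The tissues were prepared with different library kits, which cannot be told apart from the tissue. Of 23 members 2 were called, beside 2.19% of all 14197 genes. Adamts5 had a difference of -2.95 (SE 0.85, limma adjusted p = 0.287) and Adamts6 one of -2.48 (SE 0.74, limma adjusted p = 0.288). Both were lower in the SVZ of ablated mice relative to the striatum. In the striatum, Adamts6 had 0 to 6 reads in ablated and 0 to 9 in control libraries and a log2 fold change of 0.03 (SE 0.72), beside -2.27 in the SVZ, and Adamts5 was at 0.46 in the striatum beside -1.51 in the SVZ. These fold changes are from edgeR fits to counts, whereas the paired difference averages log2 CPM over mice. The paired values therefore need not equal the gap between the fold changes. Without ablated mouse 1 or 4, whose SVZ libraries were at or near 0 for both genes, neither was called (Adamts5 -2.22 and -2.41, Adamts6 -2.05 and -2.17). For Adamts1 the difference was -2.12 (SE 1.07, limma adjusted p = 0.525) and for Adamts10 it was 0.02 (SE 0.93, limma adjusted p = 0.998).

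Genes around the proteases were taken from 4 lists. Of all genes tested in the SVZ, 1.22% were called lower, 0.373% were called higher and 9.81% had an unadjusted p under 0.05. In the striatum these shares were 0.24%, 0.454% and 10.5%. Of the lecticans and their link partners, the substrates of the aggrecanases, 10 of 10 were tested in each tissue and none was called or had an unadjusted p under 0.05 in edgeR, with a median log2 fold change of 0.28 in the SVZ and -0.10 in the striatum. Of the ADAMTS-like genes and papilin, 6 of 7 were tested in each tissue. Adamtsl4, which codes for a fibrillin-binding protein without protease activity, was called lower in the striatum at -1.51 (SE 0.49, edgeR adjusted p = 0.242) and was at -0.42 (SE 0.69, edgeR adjusted p = 0.919) in the SVZ. Of activators and other inhibitors of the proteases, such as Furin, Reck and the plasminogen system, 14 of 18 were tested in the SVZ and 16 of 18 in the striatum, none was called, and 3 and 1 had an unadjusted p under 0.05. Of the fibrillar and elastic substrates 9 of 10 were tested in each tissue. Fn1, the fibronectin gene, was called higher in the SVZ of ablated mice at 1.02 (SE 0.36, edgeR adjusted p = 0.385) and was at -0.33 (SE 0.21, edgeR adjusted p = 0.622) in the striatum, where none was called.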

How the data were processed

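The authors deposited 1 table of raw gene counts per tissue. Per the labels and the study's methods, reads were trimmed with Trimmomatic (0.36 per the labels, with another version named in the study's methods), aligned to GRCm38 with STAR (2.5.3a) and counted per gene with featureCounts, and the strand setting is not given in the sources used here. SVZ libraries were whole-transcript (SMART-Seq v4) and striatum libraries 3′-end (QuantSeq), so levels were compared between genes per kb of exon in the SVZ and as CPM in the striatum.

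From the deposited counts, each tissue kept genes that passed 1 CPM in 3 or more libraries, TMM factors were computed, and edgeR 4.0.16 (R 4.3.3) quasi-likelihood fits were made on all kept genes of each tissue. The first fit had 2 groups (5 ablated, 10 controls) and the second the 4 groups with their interaction. A gene was called at an unadjusted p of at most 0.01 and a change of at least 2-fold. The tissue difference was tested with limma 3.58.1 on log2 CPM (prior count 2) of the SVZ minus the striatum of the same mouse, the mouse number in the titles giving the pairing. Fits were tested on simulated data first. The alternatives were DESeq2 1.42.0, DESeq2 size factors, limma-voom, no filter on low counts, counts thinned to the smallest library, prior count 0.5, a single control group, mice with numbers of the 40 series alone, omission of the 3 high-Ttr libraries and omission of each mouse in turn.

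Values by mouse or group are given for members called in any comparison, with an unadjusted p under 0.05 or with groups apart between ablated and control mice, for the 5 highest in control level in each tissue and for the Timp genes. From the pathway lists (lecticans and links, ADAMTS-like, regulators, fibrillar substrates) called genes are named. SVZ Mmp15, Mmp2, Adamts4, Adamts9, Adamts10, Adamts15, Adamts20 and Adamts1 and striatum Mmp2, Adamts5 and Adamts6 were named after their values were seen. Members and gene lists were chosen with earlier results of these data known. Replicates were separate mice. Gene positions are from GENCODE vM21 (GRCm38).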

Additional observations from a re-analysis of the deposited data

Results flagged for a closer look

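Within groups of 4 or 5 mice, 3 of 50 tests for a single distant mouse found one, where chance gives about 1 in 20 for values without ties. The 50 tests did not cover every member in each of these groups. Adamts6 was at 2.85 CPM in the SVZ of ablated mouse 5, with the other ablated mice at 0 to 0.697 CPM. Mmp2 was at 4.41 CPM in the SVZ of ablated mouse 3, with the others at 0 to 1.26 CPM. Adamts18 was at 0.787 CPM (3 reads) in the striatum of NestinTK+PBS+ mouse 1 and at 0 in the other 3 mice of that group. With those 3 tied at 0, any reads in mouse 1 would have been flagged.

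A difference in effect between groups was called, by unadjusted p, in 3 cases. For striatal Mmp16 the interaction of genotype and treatment was -1.03 on the log2 scale (edgeR adjusted p = 0.0792). Between tissues, paired by mouse, the difference in the ablated minus control value was -2.48 for Adamts6 and -2.95 for Adamts5. The limma adjusted p was at least 0.287 for both, and tissue and library kit cannot be told apart. These 3 results each lost their call when single mice were left out.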

How the results depend on the processing

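Between ablated and control mice the SVZ count of called members was 0 and became 1 with limma-voom (Adamts1). Shares of all genes called were not counted for the alternatives in this section. The striatum count of 2 became 0 against NestinTK-GCV+ controls alone, and ran from 1 (without NestinTK-PBS+ mouse 1) to 3 (without ablated mouse 5, NestinTK-GCV+ mouse 2 or NestinTK+PBS+ mouse 1, with Adamts18) when single mice were left out. In the SVZ, DESeq2 called 1 member for NestinTK+GCV+ minus NestinTK-GCV+ (Mmp23), 2 for NestinTK-GCV+ minus NestinTK-PBS+ (Mmp23 and Timp3) and 1 for the interaction (Mmp23). With no filter on low counts the latter 2 counts were 2 and 1, and without the high-Ttr libraries the interaction count was 1. Leaving out single mice gave 0 to 1 for both. In the striatum, leaving out single mice gave 1 to 2 for NestinTK+GCV+ minus NestinTK+PBS+, and 0 to 1 for NestinTK-GCV+ minus NestinTK-PBS+ (0 with no filter), NestinTK+PBS+ minus NestinTK-PBS+ and the interaction. The tissue difference called 0 members instead of 2 without the pairing by mouse (no replicate block), and 0 (without ablated mouse 1 or 4) to 3 when single mice were left out. Log2 fold changes that changed sign against NestinTK-GCV+ controls alone were 0.25 (Adamts1), 0.29 (Mmp14), -0.048 (Mmp17) and 0.27 (Timp3) in the SVZ and -0.34 (Adamts6), -0.037 (Mmp17) and 0.23 (Timp3) in the striatum. Without the high-Ttr libraries SVZ Mmp2 was at 0.15 and Timp3 at 0.049, and striatal Adamts8 was at 0.13 with limma-voom and 0.47 against NestinTK+PBS+ controls alone. Ranges that crossed 0 when single mice were left out were -0.0029 to 0.41 (Mmp17) and -0.016 to 0.30 (Timp4) in the SVZ, and -0.31 to 0.34 (Adamts6), -0.91 to 0.13 (Adamts8), -0.063 to 0.053 (Mmp17) and -0.15 to 0.014 (Timp4) in the striatum. The cause was not tested. Low read counts limit Adamts8, Adamts10 and Adamts18 in the striatum.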
